A study of Homo sapiens with 2 samples.

Results

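The miRNAs described here are regulators of the epithelial-mesenchymal transition (EMT), the program by which epithelial cells lose their junctions and gain motility. They are miR-200a, miR-200b, miR-200c, miR-141 and miR-429, which form the miR-200 family, together with miR-203, miR-205 and miR-630. They were chosen by assay name, and 9 of the 365 miRNA assays on the card carried these 8 names, since miR-200a stood on 2 assay numbers. Mature miRNAs (the processed strands that load into the silencing complex) were measured by quantitative reverse-transcription PCR in CL1-5, an invasive human lung adenocarcinoma line. The control was 1 RNA sample of CL1-5 cells carrying the empty plasmid pcDNA3.1. It was compared with 1 RNA sample of CL1-5 cells overexpressing ANGPTL1, a secreted angiopoietin-like protein. Both lines were held under G418 selection for 4 weeks. Whether either line was 1 clone or a pool is not given in the sources used here. There are no replicates, so no difference below has an error or a test.

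Each value is a threshold cycle, the PCR cycle at which the fluorescence of an assay crosses a set level. An earlier cycle means more template, and 1 cycle is close to a 2-fold step if each cycle doubles the product. The run ended at cycle 40, and a value of 40 was read as no amplification. A miRNA was counted as detected below cycle 35. Ratios were taken relative to RNU48, a small nucleolar RNA that served as the endogenous control and was read at cycle 20.79 in control cells and at 21.21 in ANGPTL1 cells. In these bulk RNA samples, fewer cells holding a miRNA and less of it per cell cannot be told apart.

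The miR-200 family is known for keeping epithelial cells epithelial. Its members silence ZEB1 and ZEB2, transcription factors that shut down E-cadherin, and the same factors bind and repress the genes of the family, so that the pair holds itself in either an epithelial or a mesenchymal state. miR-205 also targets ZEB1 and ZEB2 and is abundant in basal and squamous epithelium. miR-203 is a miRNA of differentiating epidermis with SNAI2 among its described targets, and miR-630, on which the study's later work is known to have centred, has been described as targeting SNAI2 (SLUG) as well.

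The sequences are shown first because they sort the family into 2 seed groups that cut across its 2 genomic loci. They are the RefSeq mature strands of GRCh38.p14, found for all 8 names, written 5′ to 3′ with the seed (bases 2 to 8) in capitals. The card's names give no arm, so the strand read by an assay is not settled, and for miR-200a both arms are shown.
miR-200c-3p: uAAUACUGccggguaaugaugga
miR-200b-3p: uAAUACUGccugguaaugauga
miR-429: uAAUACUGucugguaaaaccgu
miR-141-3p: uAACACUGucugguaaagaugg
miR-200a-3p: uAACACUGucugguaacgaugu
miR-200a-5p: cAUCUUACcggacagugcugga
miR-203a-3p: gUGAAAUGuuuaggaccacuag
miR-205-5p: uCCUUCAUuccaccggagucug
miR-630: aGUAUUCUguaccagggaaggu

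miR-200c, miR-200b and miR-429 share 1 seed, and miR-141 and the 3p strand of miR-200a share another. From miR-200c to miR-141 the seed differs by U4C, counted from 1 at the 5′ end. Beyond the seed, likeness varied from pair to pair. miR-200c and miR-200b agree at 20 of the 22 bases they can be aligned on, with G11U and G22A as the substitutions, and miR-200c is 1 base longer. miR-141 and miR-200a-3p also agree at 20 of 22, with A17C and G22U. miR-200c and miR-429, which share the seed, agree at only 15 of 22. Whether an assay of this card also reads the strand of a relative was not tested.

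By locus the family falls out differently. On chromosome 12 the mature strands of miR-200c (chr12:6963742-6963764, plus strand) and miR-141 (chr12:6964155-6964176, plus strand) are 390 bases apart, both within the span of the long non-coding RNA gene MIR200CHG. On chromosome 1 those of miR-200b (chr1:1167160-1167181), miR-200a-3p (chr1:1167916-1167937) and miR-429 (chr1:1169055-1169076) lie on the plus strand within MIR200BHG. The gaps there are 734 and 1117 bases. Each locus therefore holds both seeds. Of the others, miR-205 (chr1:209432166-209432187) lies within MIR205HG and miR-630 (chr15:72587277-72587298) within the protein-coding gene ARIH1. miR-203 (chr14:104117469-104117490) lies in the span of no other RefSeq gene that is not itself a miRNA. The hairpins of the chromosome 12 pair show the strand that the family is named for, in capitals, near the 3′ end of each precursor.
MIR200C hairpin: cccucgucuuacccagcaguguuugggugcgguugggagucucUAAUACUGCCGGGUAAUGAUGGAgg
MIR141 hairpin: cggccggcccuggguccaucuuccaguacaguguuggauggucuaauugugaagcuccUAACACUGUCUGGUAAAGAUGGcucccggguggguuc

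Of the 9 assays, 2 were below cycle 35 in each sample, and they were the same ones, miR-200c and miR-203. Of all 365 miRNA assays, the share below this limit was 43.0% for the control sample and 43.3% for ANGPTL1 cells. The other 7 assays stood at cycle 35 or later in both samples, as did 53.4% of the whole card. In the control all 7 of these were at cycle 40, against 42.5% of the card. In ANGPTL1 cells 4 were at cycle 40, against 41.9% of the card, and the other 3 crossed threshold between cycles 35 and 40. In both samples, then, most EMT regulators were undetected, and the 2 exceptions belong to different families.

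**Figure D1:**
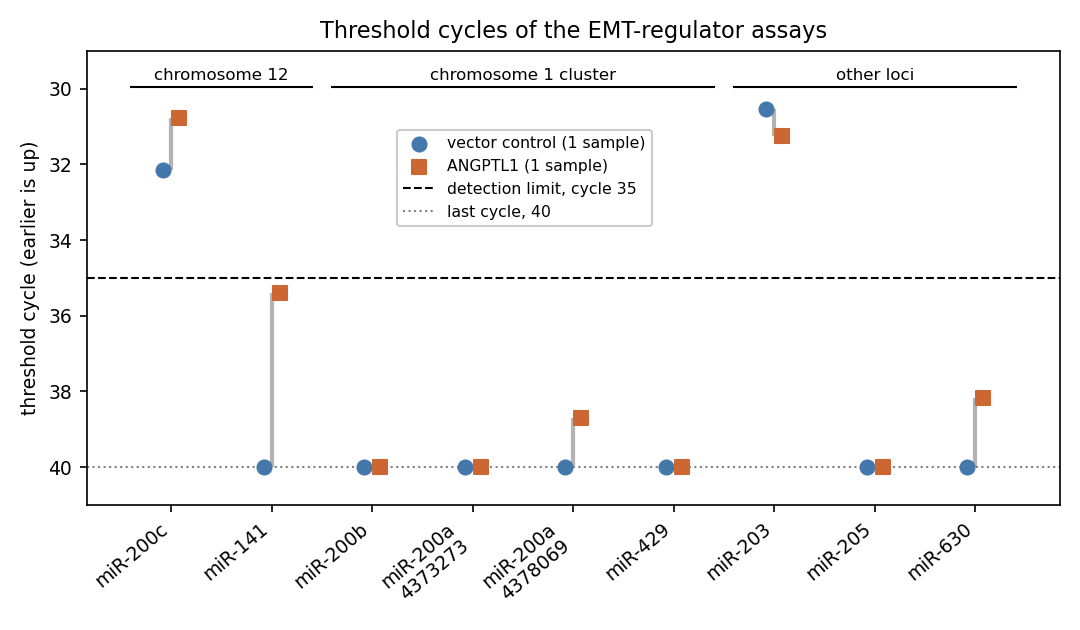
Threshold cycle of each of the 9 assays (y axis, earlier cycles upward) in the vector control (blue circles) and ANGPTL1 cells (orange squares), 1 sample each, ordered by locus; the numbers under miR-200a are its assay numbers. Only miR-200c and miR-203 sit above the dashed line at cycle 35 in both samples, and miR-141 in ANGPTL1 cells, at 35.40, comes closest to it from below.

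miR-200c was the one family member measured in both samples. Its cycle was 32.16 in the control sample and 30.77 in ANGPTL1 cells, so it came earlier in ANGPTL1 cells although RNU48 came later there. Relative to RNU48 it was 11.37 cycles later in the control and 9.55 cycles later in ANGPTL1 cells, a log2 ratio of 1.82, or 3.53-fold higher in ANGPTL1 cells. From the earliest cycle, it ranked 119th of the 157 miRNAs detected in the control and 96th of the 158 detected in ANGPTL1 cells. It is thus a miRNA of the lower part of the detected range in both.

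miR-203 went slightly the other way. Its cycle was 30.53 in the control sample and 31.25 in ANGPTL1 cells, with a log2 ratio of -0.30, which is 1.23-fold lower in ANGPTL1 cells and within 2-fold. It ranked 100th of 157 in the control and 105th of 158 in ANGPTL1 cells. The other 7 assays stood at the last cycle in the control, so miR-200c and miR-203 alone could have moved in either direction.

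The 2 detected miRNAs changed places. In the control miR-203 was 1.63 cycles earlier than miR-200c, and in ANGPTL1 cells it was 0.48 cycles later. The shift between them, 2.11 cycles, needs no reference RNA, since both were read in the same samples. The order within a sample also depends on the efficiency of each assay, which the sources used here do not give.

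Detection in both samples was reached by 145 miRNAs of the card, and of these 7.59% were past 2-fold higher in ANGPTL1 cells and 4.83% past 2-fold lower. Of the EMT regulators 1 of the 2 measured was past 2-fold higher (miR-200c) and 0 past 2-fold lower. The median log2 ratio of the 145 was -0.01, with a range from -3.58 to 3.58. Counting itself, 6 of them had a ratio at least as high as that of miR-200c, while 46 had one at least as low as that of miR-203. Without RNU48 every ratio falls by about 0.42: the 145 then split into 6 higher and 29 lower past 2-fold in place of 11 and 7, miR-200c stood at 1.39 and miR-203 at -0.72, each with its sign kept. With the median cycle of the detected miRNAs as reference the split was 6 and 31, and miR-200c stood at 1.34.

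**Figure D2:**
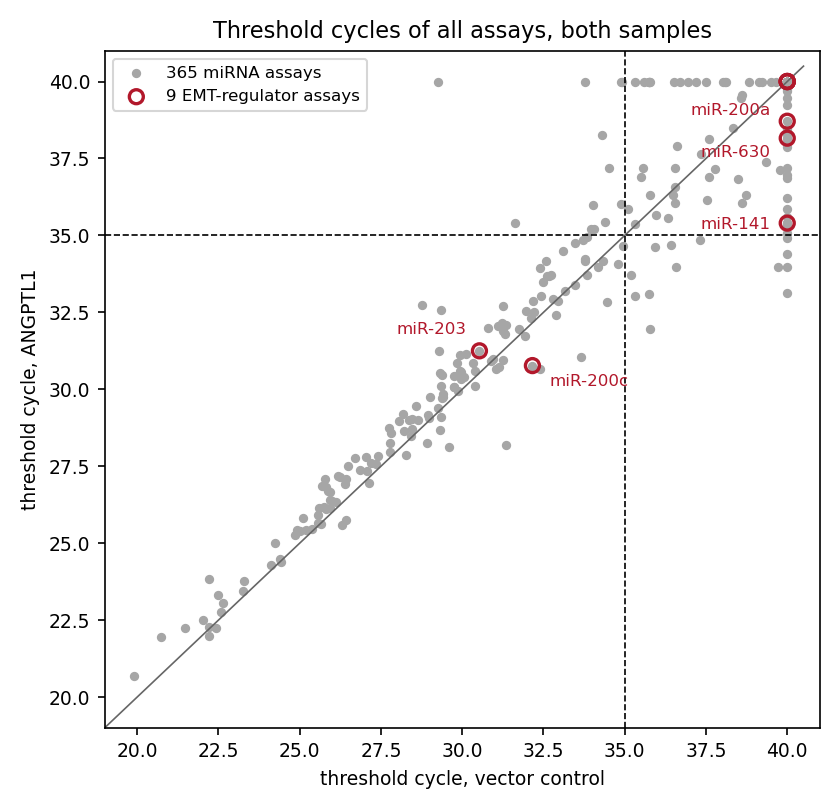
Threshold cycle of every miRNA assay in ANGPTL1 cells (y axis) against the vector control (x axis), with 365 assays in grey, the 9 EMT-regulator assays ringed in red and dashed lines at cycle 35; the diagonal marks equal cycles. miR-200c (32.16 and 30.77) lies below the diagonal, miR-203 (30.53 and 31.25) above it, and the 4 assays at cycle 40 in both samples overlap in the upper right corner.

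Each detected miRNA was then set beside the miRNAs of like level. Within 1 cycle of the mean cycle of miR-200c (31.46) there were 26 others detected in both samples, with log2 ratios from -3.58 (miR-486) through a median of -0.08 to 3.04 (miR-127). Of the 26, only 2 had a ratio above that of miR-200c, namely miR-127 and miR-146a, and these were also the only ones past 2-fold higher; 3 were past 2-fold lower. The assay nearest to miR-200c in both cycles was miR-146a, at cycle 32.38 in control and 30.65 in ANGPTL1 cells, with a log2 ratio of 2.15. The next were miR-30a-3p (0.74) and miR-224 (0.64). Nearness here is distance over 2 samples and says nothing of shared control.

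miR-203 stood somewhat below the middle of its own neighbours. Of 34 others within 1 cycle of its mean cycle (30.89), 22 had a higher ratio and 12 a lower one, around a median of -0.08. The nearest in both cycles were miR-9 (assay 4378074, log2 ratio -0.63), miR-152 (-0.10) and miR-23b (0.40).

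**Figure D3:**
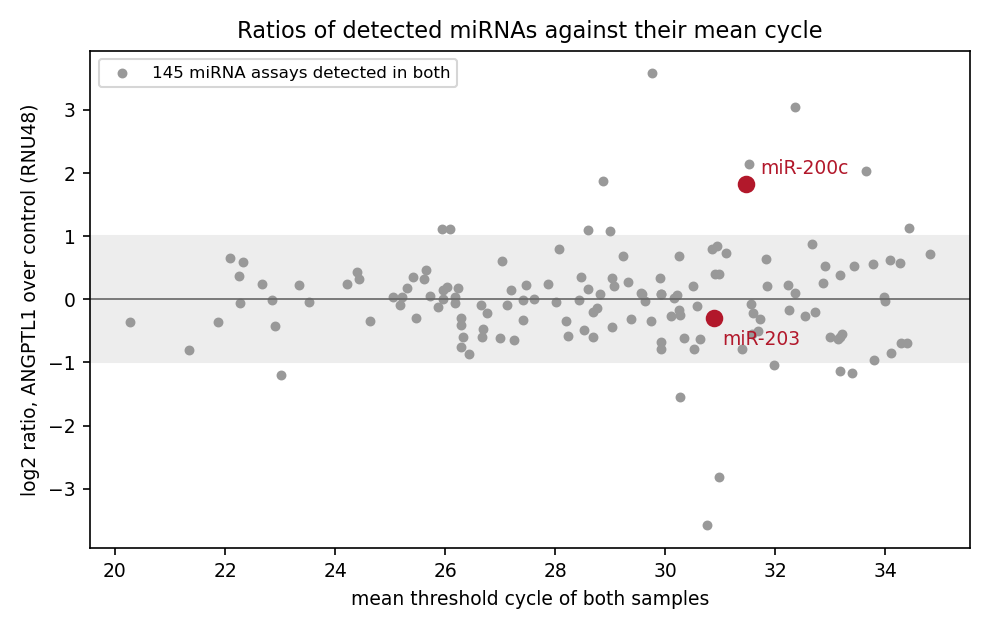
Log2 ratio of ANGPTL1 over control relative to RNU48 (y axis) against the mean threshold cycle of both samples (x axis) for the 145 miRNA assays detected in both; the grey band is within 2-fold. miR-200c, at 1.82, lies among the highest points at its level, and miR-203, at -0.30, lies inside the band.

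Within the miR-200 family the 2 loci were read against each other. On chromosome 12, both samples held detectable miR-200c and neither held detectable miR-141. miR-141 gave no amplification in the control (cycle 40) and crossed threshold at cycle 35.40 in ANGPTL1 cells, 0.40 cycles past the limit. It was thus 4.63 cycles later than its neighbour miR-200c in ANGPTL1 cells. In the control the distance was at least 7.84 cycles, because miR-141 had not crossed threshold by the last cycle. With the control at the last cycle miR-141 could not have been later in ANGPTL1 cells, so the direction at this locus rests on miR-200c alone.

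On chromosome 1, none of the 4 assays was below cycle 35. miR-200b and miR-429 stood at cycle 40 in both samples. Of the assays named miR-200a, number 4373273 stood at cycle 40 in both, and number 4378069 stood at 40 in the control and at 38.71 in ANGPTL1 cells. With all 4 at the last cycle in the control, none could have been later in ANGPTL1 cells, so these cycles give no direction. Detection therefore split the seed group of miR-200c, if the assays read the 3p strands shown. miR-200c was at cycle 30.77 in ANGPTL1 cells, while miR-200b and miR-429, with the same seed, gave no amplification. miR-200b also differs from miR-200c at just 2 of the 22 aligned bases. The other seed group was not split, since no assay named miR-141 or miR-200a was below cycle 35 in either sample.

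For miR-141 no ratio was formed, since both cycles lay past the limit. The authors' deposited table gives miR-141 a 32.4-fold increase, which uses the value of 40 in the control as if it were a measured cycle. With a limit of 38 in place of 35, miR-141 would count as detected in ANGPTL1 cells alone and would be at least 8.11-fold higher there. For miR-200b, miR-429, miR-205 and 1 of the miR-200a assays, the authors' deposited table gives 1.34-fold, the RNU48 difference alone, with no amplification in either sample.

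The long non-coding RNA genes that span the loci start within windows that hold the hexamer CACCTG, the E-box through which ZEB factors are known to bind. It is shown as a description of the 2 loci, and whether it bears on any of their cycles was not tested. The windows reach from 250 bases before to 50 after the annotated start of each RefSeq gene, and the search covered CACCTG and its reverse complement CAGGTG. The MIR200CHG window had 1 match, 78 bases before the start. The MIR200BHG window had 2, at 102 and 58 bases before the start. Of 35116 such windows of RefSeq genes, 20.6% held at least 1 match and 3.49% at least 2. G and C made up 65.7% of the MIR200CHG window and 72.7% of the MIR200BHG window. The shares over all windows were not matched for base composition. Below are the 100 bases from 130 to 31 before each start, plus strand, GRCh38.p14, with the matches in capitals, first at chr12:6963115-6963214 and then at chr1:1162747-1162846.
MIR200CHG: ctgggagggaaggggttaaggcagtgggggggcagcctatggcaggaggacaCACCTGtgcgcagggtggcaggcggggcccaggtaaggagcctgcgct
MIR200BHG: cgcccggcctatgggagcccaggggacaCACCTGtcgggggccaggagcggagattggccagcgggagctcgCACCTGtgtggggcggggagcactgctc

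Both windows thus hold the hexamer, and a match is a description of these letters, not a bound site. Neither ZEB1 nor ZEB2 was measured on this miRNA card, and nor were methylation or the host transcripts.

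miR-205, the basal-epithelial miRNA that shares ZEB1 and ZEB2 as targets with the family but not its seed, stood at cycle 40 in both samples. Over the whole card 35.6% of assays did so. miR-203, at 30.53 and 31.25, was detected in both samples, while miR-205 gave no amplification in either. The pair of miRNAs known from squamous epithelium thus differed in detection.

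miR-630 was past the detection limit in both samples. It gave no amplification in the control and crossed threshold at cycle 38.16 in ANGPTL1 cells, 3.16 cycles past the limit. Its strand lies in capitals in the precursor below, whose mature part shares its seed with no other EMT regulator here.
MIR630 hairpin: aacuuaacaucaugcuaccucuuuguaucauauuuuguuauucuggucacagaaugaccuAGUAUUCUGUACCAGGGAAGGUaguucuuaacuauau

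The place of miR-630 can be read from what other late assays did. Of the 155 assays at cycle 40 in the control, 21 (13.5%) came up between cycles 35 and 40 in ANGPTL1 cells, miR-630, miR-141 and 1 miR-200a assay among them. Of the 153 at 40 in ANGPTL1 cells, 19 (12.4%) came up that late in the control. The 21 spanned cycles 35.07 to 39.97 with a median of 37.87, and the 19 spanned 35.33 to 39.64 with a median of 37.20. miR-630 was 13th of the 21 from the earliest, and 14 of the 19 assays of the opposite kind had an earlier cycle than its 38.16. The miR-200a assay 4378069 was 16th of the 21. miR-141 was the third, and 1 of the 19 was earlier than its 35.40.

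**Figure D4:**
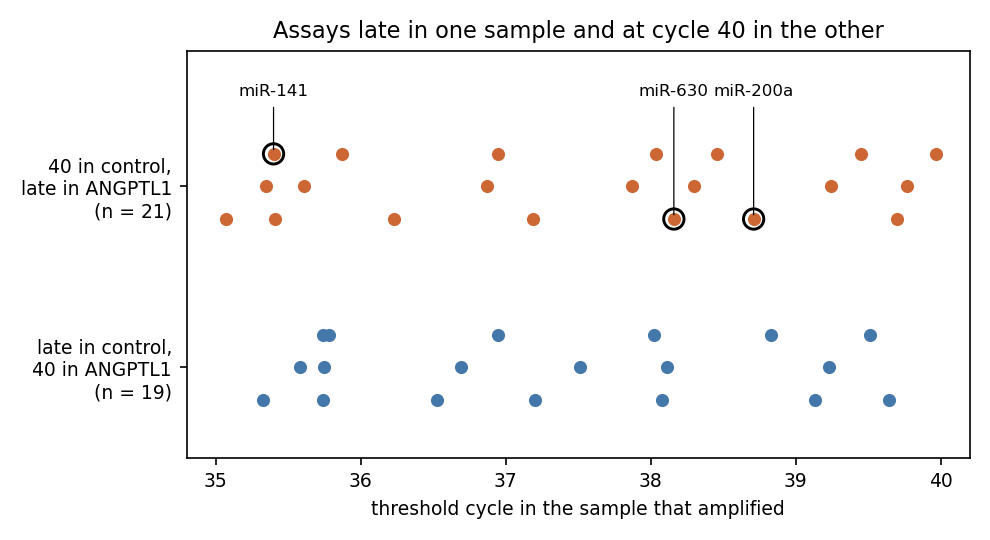
Threshold cycle, in the sample that amplified, of assays that crossed between cycles 35 and 40 in 1 sample and stood at 40 in the other: 21 late in ANGPTL1 cells (orange, upper row) and 19 late in the control (blue, lower row), spread vertically for sight only. miR-141 (35.40) lies at the early end of the upper row, and miR-630 (38.16) and miR-200a (38.71) lie past its median of 37.87.

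Late cycles were often not seen again in the other sample. Of 53 assays late in the control, 35.8% stood at 40 in ANGPTL1 cells, and of 54 late in ANGPTL1 cells, 38.9% stood at 40 in the control. A total of 25 assays were late in both samples, and their cycles differed by a median of 0.76 and at most 2.64. Of these 25, 4 differed by at least the 1.84 cycles that separate 38.16 from 40. These spreads lie between 1 sample of each condition, so they hold real differences as well as noise. For miR-630 the control gives only a bound at the last cycle, and with both samples past the limit no ratio was formed. The authors' deposited table gives it a 4.79-fold increase, a value that rests on the 40 in the control and that 29 assays, itself included, reach or exceed.

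Other miRNAs linked to EMT gave no common direction. A list of miRNAs described as holding EMT back through targets such as ZEB2, SNAI1, SNAI2 or TGF-beta receptors had 19 of its 20 names on the card (miR-138 matched no assay name). Of these 9 were detected in both samples, with 2 past 2-fold higher, 0 past 2-fold lower and 7 within 2-fold, beside the same 7.59% and 4.83% of all 145. Their median log2 ratio was 0.03 beside -0.01 for all 145. The pair past 2-fold were miR-34c, a p53-induced repressor of SNAI1, at 2.04, and miR-30a-5p, which also targets SNAI1, at 1.12. Without RNU48 the list's median was -0.39, with miR-34c alone past 2-fold higher and 2 members past 2-fold lower. All 145 then had a median of -0.43, with 6 past 2-fold higher and 29 past 2-fold lower.

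The others of that list detected in both samples were miR-30d (0.61), miR-30b (0.04), miR-30c (0.03), miR-192 (-0.04), miR-34a (-0.17), miR-335 (-0.61) and miR-101 (-0.78). miR-34b, from the same transcript as miR-34c, was detected in ANGPTL1 cells alone and was at least 2.75-fold higher there with the control cycle set to 35. miR-218 was also detected there alone, at least 1.48-fold higher. miR-33 (at least 1.73-fold lower in ANGPTL1 cells), miR-30e-5p (at least 1.45-fold lower) and miR-215 (no bound) were detected in the control alone. The remaining 5 were detected in neither sample.

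A list of miRNAs described as driving EMT or invasion had 11 assays on the card for 10 names, since miR-9 has 2 assay numbers. Of these 10 were detected in both samples, with 1 past 2-fold higher, 1 past 2-fold lower and 8 within 2-fold, beside 7.59% and 4.83% of the 145. Their median log2 ratio was -0.15. Without RNU48 it was -0.57 beside -0.43 for all 145, with 3 past 2-fold lower beside 29 of the 145. miR-155, induced by TGF-beta in epithelial cells, was highest at 3.58 and miR-107, which lowers DICER1, lowest at -1.04. The rest were miR-24 (0.37), miR-221 (0.25), miR-27a (0.18), miR-103 (0.06), miR-222 (-0.36), miR-21 (-0.42) and the assays of miR-9 (-0.63 and -0.75). miR-10b was detected in neither, at cycles 36.54 and 36.04. With a limit of 32 or 38 the list's median was 0.06, so its sign is not settled.

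**Figure D5:**
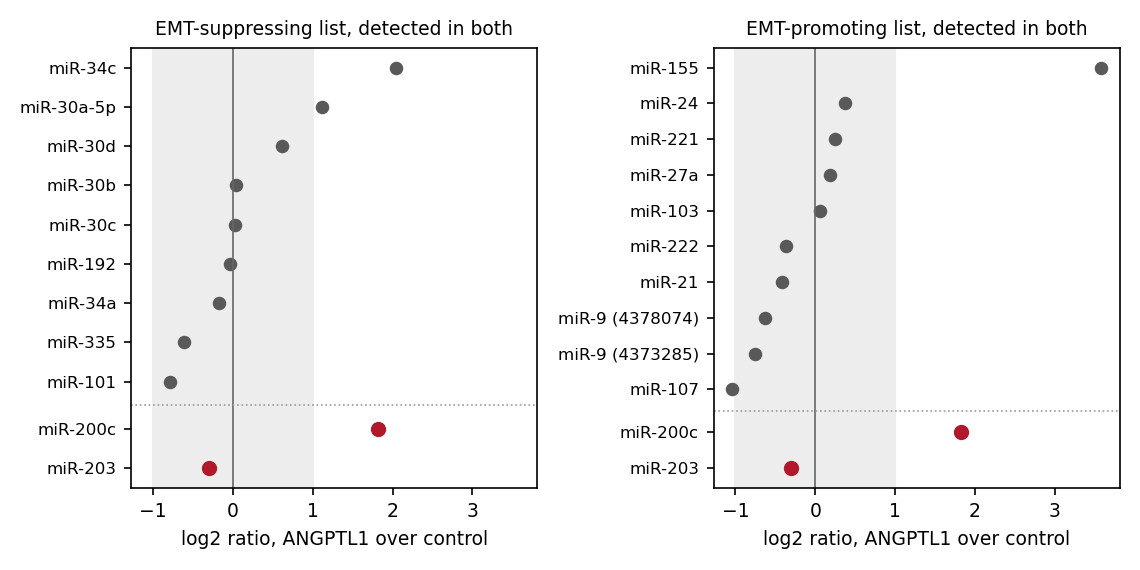
Log2 ratio of ANGPTL1 over control relative to RNU48 (x axis) for the miRNAs of the EMT-suppressing list (left, 9 assays) and the EMT-promoting list (right, 10 assays) detected in both samples, with miR-200c and miR-203 in red under the dotted line for comparison; the grey band is within 2-fold. miR-200c at 1.82 lies between miR-34c (2.04) and miR-30a-5p (1.12) of the left list, and most points of both lists lie in the band.

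Markers of other cell types were looked up on the card, where 39.7% of all assays were detected in both samples. The epithelial miRNAs are the EMT regulators themselves without miR-630, so they give no separate check of the cell type. Of blood cell markers 0 of 4 were detected in both samples, and miR-142-3p alone was below cycle 35 in the control, at 34.51. Of muscle markers 1 of 4 was detected in both samples (miR-133b), and of fibroblast and smooth muscle markers 1 of 5 assays (an assay named miR-199a), with miR-143 and miR-145 at cycle 40 in both. The assays of the endothelial miR-126 were both detected, with log2 ratios of 0.33 and -0.41. Of neuroendocrine markers miR-7 was detected in both (1.08) and miR-375 in the control alone. The part of these in the cycles of miR-200c was not tested.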

How the data were processed

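Mature miRNAs were measured in 2 RNA samples, 1 per group, with TaqMan assays on a low density card of the human panel, with 500 ng of total RNA and 40 cycles, per the labels' protocols. The authors deposited average cycles, average delta Ct (cycle minus that of RNU48) and the fold, a ratio of ANGPTL1 over control, per the file headers. The sources used here do not name the number of wells averaged, the threshold or the software. The log2 ratio was delta Ct of the control minus that of ANGPTL1 cells. It differed from the ratio of the deposited cycles by at most 0.02. A further 2 columns of relative levels were not used.

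Ratios were counted only below cycle 35 in both samples. For a miRNA detected in 1 sample the later cycle was set to 35 and a bound is given. All members were named, with the 3 nearest assays by distance over both cycles, and list members detected in at least 1 sample. The members, lists and rules were chosen with earlier results of these data known. Assay names were matched by spelling; both assays of a doubled name were kept. Counting past 2-fold was tested on simulated cycles, with changes planted only in assays well before cycle 35 in the control. The bounds and the counts of late assays were not part of that test. Python 3.11.15, pandas 2.3.3 and matplotlib 3.10.9 were used. The alternatives were other limits (32, 38, 40), folds (1.5, 4) and references.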

Additional observations from a re-analysis of the deposited data

How the results depend on the processing

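Without normalization the log2 ratio of miR-200c was 1.39 and that of miR-203 was -0.72. With the median cycle of the detected miRNAs as reference they were 1.34 and -0.77. Recomputing RNU48 from the cycles, or using the authors' fold table, moved either by at most 0.02. With a detection limit of 32, 1 EMT regulator was detected in the control and 0 were past 2-fold higher, since miR-200c at 32.16 drops out; it would then be at least 3.14-fold higher. With no limit but cycle 40, 5 were detected in ANGPTL1 cells. With a 4-fold threshold 0 were past it. The EMT-suppressing list had 1 member past 2-fold higher with a limit of 32, where fewer are counted, and 1 without normalization, with 2 lower and a median of -0.39. The EMT-promoting list had 0 past 2-fold lower with a limit of 32, and 3 without normalization with a median of -0.57. Its median was 0.06 with a limit of 32 or 38. All 145 miRNAs detected in both samples had a median of -0.43 without normalization, with 6 past 2-fold higher and 29 past 2-fold lower. Of the 46 values, 29 counted as unchanged: a count within 1.5-fold of the main one, or a ratio or median within 0.02. Another 14 moved by more, and 3 medians changed sign. With 1 sample on each side, leaving out a replicate was not possible. No paired analysis was possible because the comparison holds only 1 sample on each side. Cycles past 35 limit what can be said of miR-141, miR-200a and miR-630.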
